A study of Mus musculus with 22 samples.

Results

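Topotecan added to etoposide was examined in medullary thymic epithelial cells (MECs) of wild-type mice, as the 3 arrays titled with both drugs (WT EtopoTopo) against the 3 arrays titled with Etopo alone (WT Etopo). These 6 arrays were chosen by title from the 22 arrays of the series. The labels write Etopo and Topo without spelling them out, and these are read here as etoposide and topotecan. All 6 carried the genotype Aire+/+ on strain C57Bl/6, and no group here was untreated, since both carried Etopo. Doses and durations were not used here. The labels do not say whether an array is a single mouse or a pool, so the p-values measure a spread between arrays that may in part be technical. MECs were sorted as living cells without CD45, with little Ly51 and much MHC class II, a gate that would remove thymocytes and other leukocytes.

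For side comparisons, topotecan added to vehicle was taken from 3 WT Topo and 3 WT DMSO arrays, and topotecan added to etoposide without Aire from 2 KO EtopoTopo and 2 KO Etopo arrays (Aire-/-, C57Bl/6). Ages differed between the groups. By label, WT EtopoTopo 1, 2 and 3 came from mice of 4 weeks, WT Etopo 1 and 2 from mice of 6 weeks and WT Etopo 3 from mice of 4 weeks. KO EtopoTopo was from 4 weeks and KO Etopo from 6 weeks, so age and drug cannot be told apart there. In the vehicle comparison age ran the other way, with all WT Topo arrays at 6 weeks and WT DMSO at 6, 6 and 4 weeks. WT Etopo 2 carries a male label and the other 5 arrays of the main comparison a female label. The titles of WT EtopoTopo 1 and 2 name both drugs while their treatment label names Etopo only, so results are also given for WT EtopoTopo 3 alone.

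Topoisomerases cut DNA, let strands pass and reseal the cut. Etoposide holds type II enzymes, which cut both strands, on the broken DNA, and topotecan holds topoisomerase I, which cuts a single strand. Mature MECs express Aire, a regulator under which many genes of other tissues are transcribed, so that T cells that react to them can be removed. Topoisomerases have been described as partners of Aire, and the question this comparison addresses is what a topoisomerase I inhibitor adds once type II enzymes are inhibited.

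Values are log2 of the deposited intensities, and a change is the mean of WT EtopoTopo minus the mean of WT Etopo, ± its standard error (SE) in the fit, with n = 3 arrays per group. A gene was called at a limma adjusted p under 0.05 over 19752 genes. With Topo added, 246 genes rose and 487 fell (1.25 and 2.47% of genes tested), 10 and 60 of them at least 2-fold. The median change of all genes was 0.02. Genes of mitosis and of Aire-dependent tissue antigens were lower with both drugs, and genes of tuft cells, bitter taste receptors and olfactory and vomeronasal receptors were higher.

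The calls did not hold with age taken into account, and their number depended on which arrays were kept. Against WT Etopo 3 alone, the only etoposide array from 4-week mice, 0 genes were called by limma, with a smallest adjusted p of 0.787 and 967 genes at an unadjusted p under 0.05. That comparison changes age and also leaves 1 etoposide array, and the part of each in the loss was not tested. With age as a covariate limma called 0 genes (smallest adjusted p 0.0788, 1716 genes at an unadjusted p under 0.05). Only WT Etopo and WT DMSO hold both ages, so the age term rests on WT Etopo 3 and WT DMSO 3 within their groups. That fit is therefore not separate from the other comparisons of age given here. Against WT Etopo 3 alone, the median change of the 246 genes that rose went from 0.65 to 0.51 and that of the 487 that fell from -0.68 to -0.50, on 4 of the 6 arrays that chose them. Leaving out 1 array gave 51 called genes (without WT Etopo 1) to 981 (without WT Etopo 3). Between these lay 97 without WT Etopo 2, 655 without WT EtopoTopo 1, 138 without WT EtopoTopo 2 and 201 without WT EtopoTopo 3. With WT EtopoTopo 3 alone 1 gene was called, with 2618 at an unadjusted p under 0.05. The vehicle arrays give a measure of age apart from these 6. In WT DMSO 3, from 4 weeks, the 487 genes had a median of -0.14 relative to the mean of WT DMSO 1 and 2, from 6 weeks, and the 246 genes one of 0.15, against 0 for all genes. WT DMSO 1 stands apart in that measure, with a mean of the thymocyte list of 8.20 against 7.45 and 7.36 in WT DMSO 2 and 3.

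Arrays also differed in range. The span from the 10th to the 90th percentile was 4.92, 4.74 and 4.73 log2 units in WT Etopo 1 to 3 and 4.66, 4.32 and 4.33 in WT EtopoTopo 1 to 3, with median intensities of 250 to 257 and correlations between these arrays of 0.971 to 0.992. On arrays of narrower range, genes of low level lie higher and genes of high level lower. In the lowest of 5 bins of genes by level, the median change was 0.20 and 3.44% of genes rose. In the highest bin it was -0.14 and 3.39% fell. After quantile normalization, which gives all arrays the same range, these medians were 0.02 and -0.02, and the share of called genes that were lower went from 66.4 to 57.2%. A change of a dim gene is thus best read beside its quantile-normalized value.

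**Figure D1:**
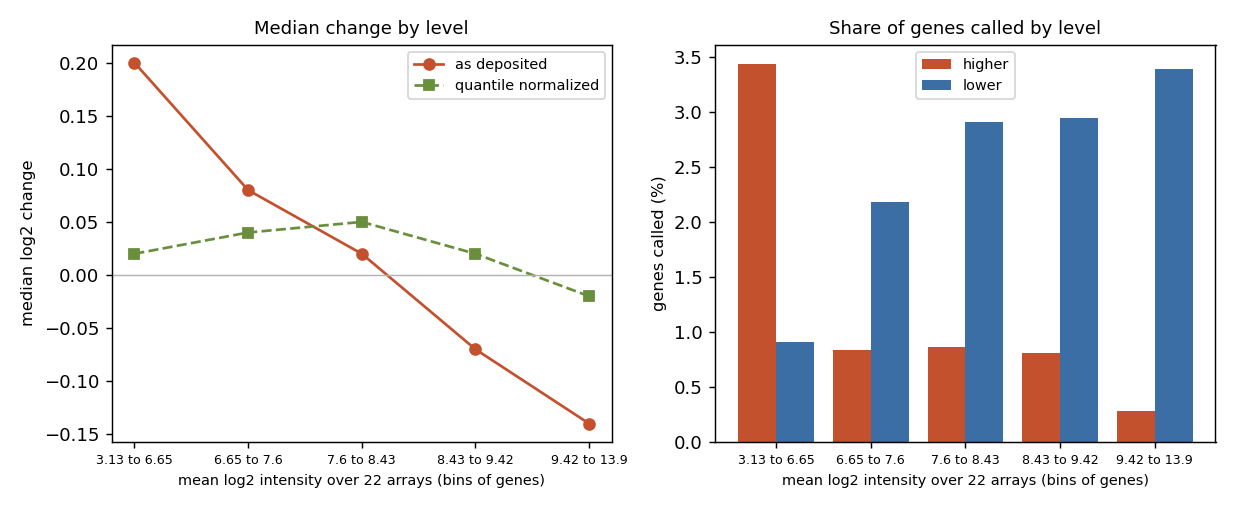
Median log2 change (left, as deposited and after quantile normalization) and percent of genes called higher or lower (right), for WT EtopoTopo against WT Etopo, in 5 bins of genes by mean log2 intensity over 22 arrays. As deposited, the median goes from 0.20 in the dimmest bin to -0.14 in the brightest, and after quantile normalization from 0.02 to -0.02.

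Genes of mitosis were lower with both drugs. Of 32 measured members of 33 asked for, 17 fell and 0 rose, a share of 53.1% against 2.47% of all genes. All 32 changes lay below 0, with a median of -0.64, and for 30 members the 3 WT EtopoTopo arrays lay below the 3 WT Etopo arrays, which was so for 15.4% of all genes (and the reverse for 15.8%). In bulk samples fewer dividing cells and less RNA per cell cannot be told apart.

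The stretches of 200 bases before the transcription starts of these genes were also read. Promoters of the late cell cycle often hold a cell cycle homology region (TTTGAA or TTCGAA) and CCAAT boxes. RefSeq (GRCm38.p6) windows were matched for 29 of the 32 genes and for 15435 of all 19752 genes, and both motifs were searched on both strands, which lets a CCAAT box also read ATTGG and TTTGAA also read TTCAAA. The 4 windows below are those of Cdk1, Top2a, Ect2 and Hmmr, which fell and show both motifs or repeated CCAAT boxes. Capitals mark the matches of either motif.

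Cdk1, chr10:69352913-69353112, minus strand: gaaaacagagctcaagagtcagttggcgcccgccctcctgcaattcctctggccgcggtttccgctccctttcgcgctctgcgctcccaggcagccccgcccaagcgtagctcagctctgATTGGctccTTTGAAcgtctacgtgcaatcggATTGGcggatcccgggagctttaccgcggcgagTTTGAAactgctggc

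Top2a, chr11:99024190-99024389, minus strand: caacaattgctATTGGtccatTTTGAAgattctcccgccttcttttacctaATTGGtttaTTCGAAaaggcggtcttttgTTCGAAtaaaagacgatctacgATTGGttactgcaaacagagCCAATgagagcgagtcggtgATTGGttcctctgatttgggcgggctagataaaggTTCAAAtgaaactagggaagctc

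Ect2, chr3:27153855-27154054, minus strand: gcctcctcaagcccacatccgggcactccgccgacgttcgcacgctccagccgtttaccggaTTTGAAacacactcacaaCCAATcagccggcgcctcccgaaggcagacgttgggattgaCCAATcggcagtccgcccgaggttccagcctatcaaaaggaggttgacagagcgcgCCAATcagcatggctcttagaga

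Hmmr, chr11:40733438-40733637, minus strand: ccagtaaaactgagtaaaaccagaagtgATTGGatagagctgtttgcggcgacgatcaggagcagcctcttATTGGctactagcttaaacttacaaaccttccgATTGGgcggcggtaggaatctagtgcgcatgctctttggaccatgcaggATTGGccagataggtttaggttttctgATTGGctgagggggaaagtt

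The Top2a window held 4 matches of the cell cycle homology region and 5 CCAAT boxes, the Cdk1 window 2 and 2, and the Ect2 window 1 and 3. The Hmmr window held 5 CCAAT boxes and no match of the other motif. Among the 29 mitosis windows, 37.9% held the cell cycle homology region and 72.4% a CCAAT box, against 11.3 and 31.1% of all windows. Both motifs were present in 34.5% against 3.67%. Among the 15 windows of members that fell, 46.7% held the cell cycle homology region and 73.3% a CCAAT box. The list was chosen by function, so its shares do not bear on the fall. Nusap1 and Nuf2 are among the members that fell and held neither motif in this window. These are matches of letters and say nothing of binding.

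Cdk1 is the kinase that drives entry into mitosis. Its log2 intensity was 9.74, 9.87 and 9.68 in WT Etopo 1 to 3 and 8.48, 8.80 and 8.90 in WT EtopoTopo 1 to 3. It fell by 1.04 ± 0.17 (limma adjusted p = 0.0036), and the groups did not overlap. Nusap1, which bundles spindle microtubules, was at 8.72, 9.09 and 9.02 against 7.57, 7.90 and 7.97 and fell by 1.13 ± 0.20 (limma adjusted p = 0.00628). Ect2, needed for the cleavage furrow, was at 9.34, 9.45 and 9.42 against 8.45, 8.75 and 8.71 and fell by 0.77 ± 0.12 (limma adjusted p = 0.0036). In these 3 genes WT Etopo 3 lay with the 6-week etoposide arrays, and against it alone the changes were -0.95 for Cdk1, -1.21 for Nusap1 and -0.78 for Ect2. In vehicle the 4-week array differed from the mean of the 6-week arrays by 0.01, -0.18 and 0.08.

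The other members named by lowest p were the spindle assembly factor Tpx2 (-0.83 ± 0.15), the kinetochore protein Nuf2 (-0.86 ± 0.17), the kinesin Kif2c (-0.62 ± 0.13), the spindle and hyaluronan-binding protein Hmmr (-0.99 ± 0.21) and Top2a. Their limma adjusted p ran from 0.00753 to 0.0162. The mean of the list was 8.27, 8.33 and 8.27 in WT Etopo and 7.44, 7.68 and 7.76 in WT EtopoTopo. The median change was -0.64 after quantile normalization, -0.60 against WT Etopo 3 alone, -0.61 with age as a covariate and -0.54 with WT EtopoTopo 3 alone. In vehicle the list differed between 4 and 6 weeks by a median of -0.03.

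The same list was also lower when Topo was added to vehicle, on arrays that the main comparison does not use. There 8 members fell and 0 rose (1.38% of all genes fell and 0.83% rose), with a median of -0.56 and list means of 8.50, 8.32 and 8.38 in WT DMSO against 7.66, 7.97 and 7.88 in WT Topo. Markers of other cells were also lower there. The thymocyte list had a median of -0.49 (1 of 18 fell), with means of 8.20, 7.45 and 7.36 in WT DMSO against 7.25, 7.26 and 7.19 in WT Topo, and the macrophage and dendritic list one of -0.26. WT DMSO 1 was the highest vehicle array for thymocyte and for mitosis genes, while the mitosis means of WT DMSO 2 and 3 also lay above all 3 WT Topo arrays. The part of other cells in this result was not tested. Without Aire the list's median change was near 0. KO Etopo stood at 7.54 and 7.72 and KO EtopoTopo at 7.55 and 7.67, with a median change of -0.01 and 0 of 32 members called, at a background of 1.14% of genes lower and 0.451% higher. The KO arrays with Etopo alone were thus already at the level of WT EtopoTopo. The difference between genotypes had a median of 0.62 over the list, and for 0 of the 32 members did that difference pass the test.

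**Figure D2:**
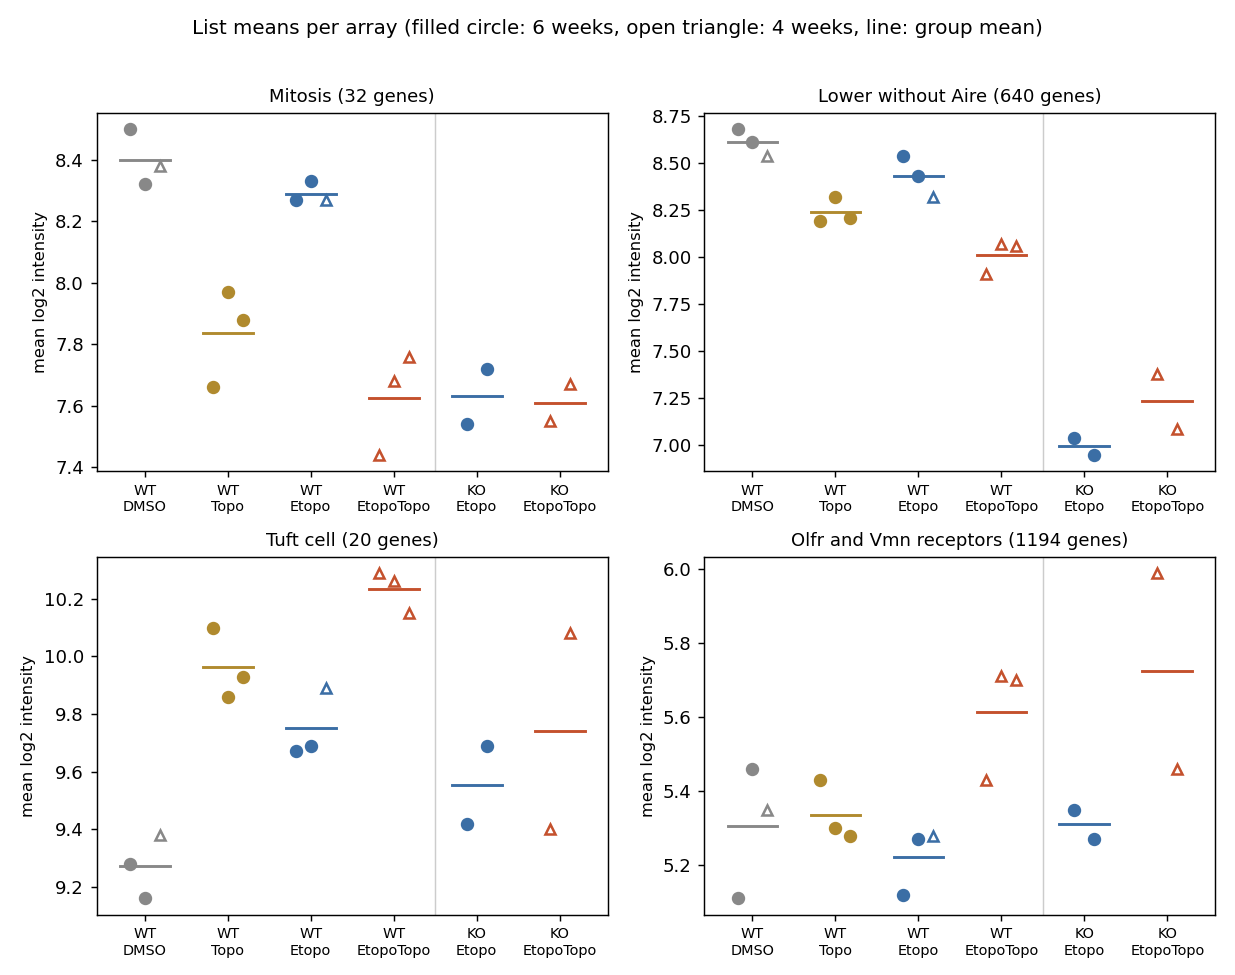
Mean log2 intensity per array of 4 gene lists in WT and KO groups (points are arrays, filled circles 6 weeks, open triangles 4 weeks, lines group means). Mitosis means were 8.27 to 8.33 in WT Etopo and 7.44 to 7.76 in WT EtopoTopo, and 7.54 to 7.72 in all 4 KO arrays shown.

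Genes of DNA replication moved less. Of 31 members, 2 fell (6.45% against 2.47% of all genes) and 0 rose, with 28 changes below 0 and a median of -0.28. The sliding clamp Pcna was at 11.27, 11.47 and 11.17 in WT Etopo and 10.74, 10.70 and 10.83 in WT EtopoTopo and fell by 0.55 ± 0.14 (limma adjusted p = 0.0338). Rrm2, the ribonucleotide reductase subunit made in S phase, fell by 0.77 ± 0.21 (limma adjusted p = 0.043). Its partner Rrm1 had a change of -0.69 ± 0.22 that did not pass (limma adjusted p = 0.0775). Of 9 histone genes measured of 18 asked for, 3 fell, H2bc3 (-1.38 ± 0.32), H2bc8 (-0.66 ± 0.15) and H2ac8 (-0.63 ± 0.15), and the median was -0.60. In vehicle all 9 histone genes were lower at 4 weeks by a median of -0.46, and H2bc3 by 0.93. Their list means were 9.63, 9.18 and 8.97 in WT DMSO 1 to 3, so WT DMSO 1 and 2, of the same age, differed too. Histone genes are near-identical copies, so probes may share signal among them.

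Among the drug targets and the enzymes that repair their damage, Top2a and Tdp1 fell. Top2a, the type II enzyme of dividing cells and a member of the mitosis list too, was at 9.31, 9.29 and 9.08 in WT Etopo and 8.13, 7.69 and 8.09 in WT EtopoTopo, and it fell by 1.25 ± 0.27 (limma adjusted p = 0.0162). Top2b, the type II enzyme of nondividing cells, was at 8.61, 8.38 and 8.64 against 8.76, 8.46 and 8.23, a change of -0.06 ± 0.20 with overlapping groups (limma adjusted p = 0.887). Top1, the target of topotecan, was at 9.31, 9.18 and 9.12 against 9.23, 8.93 and 8.79 (-0.22 ± 0.16, limma adjusted p = 0.431). The mitochondrial Top1mt changed by -0.11 ± 0.13 (limma adjusted p = 0.66). Of the 8 topoisomerase genes Top2a was the 1 called.

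Tdp1 frees DNA ends from topoisomerase I that has stayed bound. Its 3 WT Etopo arrays read 10.02, 10.17 and 9.95 and its WT EtopoTopo arrays 9.24, 9.26 and 9.17, and it fell by 0.82 ± 0.14 (limma adjusted p = 0.00465). The gap between groups was wider than the spread within either, and against WT Etopo 3 alone the change was -0.73, with a difference between ages in vehicle of 0.06. Tdp1 also fell when Topo was added to vehicle (-0.66 ± 0.14, limma adjusted p = 0.0124), and its change without Aire was -0.41 ± 0.17 (limma adjusted p = 0.153). Tdp2, which does the same for type II enzymes, was at 8.67, 8.27 and 8.44 against 8.24, 8.03 and 7.97, a change that did not pass (-0.38 ± 0.16, limma adjusted p = 0.165). Tdp1 was the 1 gene called of 14 repair genes, and the list's median was -0.17. The break sensor Rad50 had a change of -0.41 ± 0.13 (limma adjusted p = 0.0753).

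Genes of the response to DNA breaks held 1 called gene of 18, Fancd2 of the crosslink repair pathway, which fell by 0.55 ± 0.12 (limma adjusted p = 0.0196), and the list's median was -0.20. Of 20 p53 targets 0 were called, with a median of -0.15, 4 changes above 0 and a highest change of 0.36. Cdkn1a, Bax, Gdf15 and Trp53 were asked for and not measured. Immediate early and stress genes (0 of 23 called, median -0.13) and NF-kB and cytokine genes (0 of 21 called, median -0.09) were not called either. The immediate early median was 0.17 against WT Etopo 3 alone and 0.18 with age as a covariate, and the NF-kB median 0 and 0.06, so neither list kept its sign. In vehicle all 23 immediate early genes and 19 of the 21 NF-kB genes were lower at 4 weeks, by medians of -0.50 and -0.30. Immediate early means were 10.7, 9.78 and 9.69 in WT DMSO 1 to 3, and NF-kB means 9.97, 9.48 and 9.43. WT DMSO 2, of the same age as WT DMSO 1, lay near WT DMSO 3. The part of age in these differences was not tested. At an unadjusted p under 0.05 lay 4233 of all genes by limma. In the interferon list Oas2 was the 1 gene of 24 that rose (0.67 ± 0.17, limma adjusted p = 0.0359), and its groups overlapped, at 7.40, 7.45 and 8.07 against 8.71, 8.06 and 8.16.

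Tissue antigens under Aire were among the genes that fell. As a list that does not rest on these 6 arrays, 640 genes were taken as lower in KO DMSO than in WT DMSO, at a limma adjusted p under 0.05 and at least 2-fold (3.24% of genes, with 0.689% higher by the same rule). Of them 164 fell and 4 rose with Topo added, 557 had a change below 0, and the median was -0.40. The 164 are 25.6% of the list, against 2.47% of all genes, and 33.7% of the 487 genes that fell. Its mean was 8.54, 8.43 and 8.32 in WT Etopo and 7.91, 8.07 and 8.06 in WT EtopoTopo, with WT Etopo 3, from 4 weeks, nearest to the combination. The median was -0.39 after quantile normalization, -0.28 against WT Etopo 3 alone and -0.10 between ages in vehicle. Of the 136 genes higher without Aire, 14 fell (10.3% against 2.47% of all genes) and 0 rose, with a median of -0.24.

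Among 42 measured antigens named for their dependence on Aire, 12 fell (28.6% against 2.47% of all genes) and 0 rose, and the median was -0.32. Pth, parathyroid hormone, was at 9.29, 9.47 and 8.78 in WT Etopo and 7.11, 7.62 and 7.21 in WT EtopoTopo and fell by 1.87 ± 0.25 (limma adjusted p = 0.00102). Cyp1a2, a liver cytochrome, was at 9.30, 9.31 and 9.0 against 7.37, 7.85 and 8.05 and fell by 1.45 ± 0.18, with the lowest p of the comparison among the genes named here (limma adjusted p = 0.00066). Amtn, an enamel protein, was at 9.86, 9.74 and 9.62 against 7.94, 8.37 and 8.79 (-1.37 ± 0.23, limma adjusted p = 0.00465). For these 3 genes WT Etopo 3 stood above every combination array, and against it alone the changes were -1.47, -1.24 and -1.25. Between ages in vehicle they differed by -0.48, -0.07 and 0.09.

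Fibrinogen subunits fell as well, Fgg by 1.10 ± 0.16 (limma adjusted p = 0.00241) and Fgb by 0.64 ± 0.13 (limma adjusted p = 0.0132), as did the milk protein Csn1s2a (-1.14 ± 0.21) and the retinoic acid binding protein Crabp1 (-0.71 ± 0.15). S100a8, a calcium-binding protein of neutrophils, was at 10.07, 9.85 and 9.08 against 8.32, 7.46 and 8.11 and fell by 1.70 ± 0.33 (limma adjusted p = 0.0085). It was also lower at 4 weeks in vehicle, by 1.21. Against WT Etopo 3 alone, at the same age, its change was -1.12. Dcpp2, a gene of salivary glands, was at 7.57, 7.34 and 5.83 against 5.29, 5.35 and 5.57. Dcpp2 fell by 1.51 ± 0.38 (limma adjusted p = 0.033), and its difference was -0.43 against WT Etopo 3 alone and -1.12 between ages in vehicle. For both genes age and drug cannot be fully told apart. Antigens with known Aire-independent expression held 1 gene of 14 that fell, albumin Alb (-1.23 ± 0.20, limma adjusted p = 0.0036), at a median of -0.12. Alb differed between ages in vehicle by -0.62.

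Among the further genes with the lowest changes, Rnase2a, of the family of eosinophil ribonucleases, was at 9.94, 9.60 and 8.94 against 7.67, 8.03 and 7.64 and fell by 1.71 ± 0.29. Nts, the precursor of neurotensin, was at 9.22, 9.22 and 8.18 against 7.24, 7.30 and 7.52 and fell by 1.52 ± 0.25. Akr1c18, which breaks down progesterone, was at 10.87, 10.81 and 10.22 against 9.35, 9.14 and 8.99 and fell by 1.47 ± 0.22. Il9, a cytokine of T helper and innate lymphoid cells, was at 9.88, 10.86 and 10.22 against 7.91, 9.32 and 9.43 and fell by 1.43 ± 0.30. The groups did not overlap in these 4 genes, which was a rule of their selection (limma adjusted p from 0.00289 to 0.0138). For Nts and Rnase2a WT Etopo 3 lay between. Hbb-y, an embryonic globin (-1.48 ± 0.25), Tdo2, a tryptophan oxygenase of liver (-1.38 ± 0.27), Gpx6, an olfactory glutathione peroxidase (-1.34 ± 0.21), Spata19, a sperm mitochondrial protein (-1.33 ± 0.25), and the zinc finger gene Zfp931 (-1.47 ± 0.32) fell too. Against WT Etopo 3 alone the changes were smaller, at -0.83 for Nts, -0.84 for Hbb-y and -0.71 for Tdo2, and these 3 genes were lower at 4 weeks in vehicle, with differences of -0.87, -0.54 and -0.56. Rnase2a, Gpx6, Spata19 and Zfp931 differed between ages in vehicle by -0.67, -0.3, -0.25 and -0.11, and Akr1c18 and Il9 by 0.02 and -0.04.

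**Figure D3:**
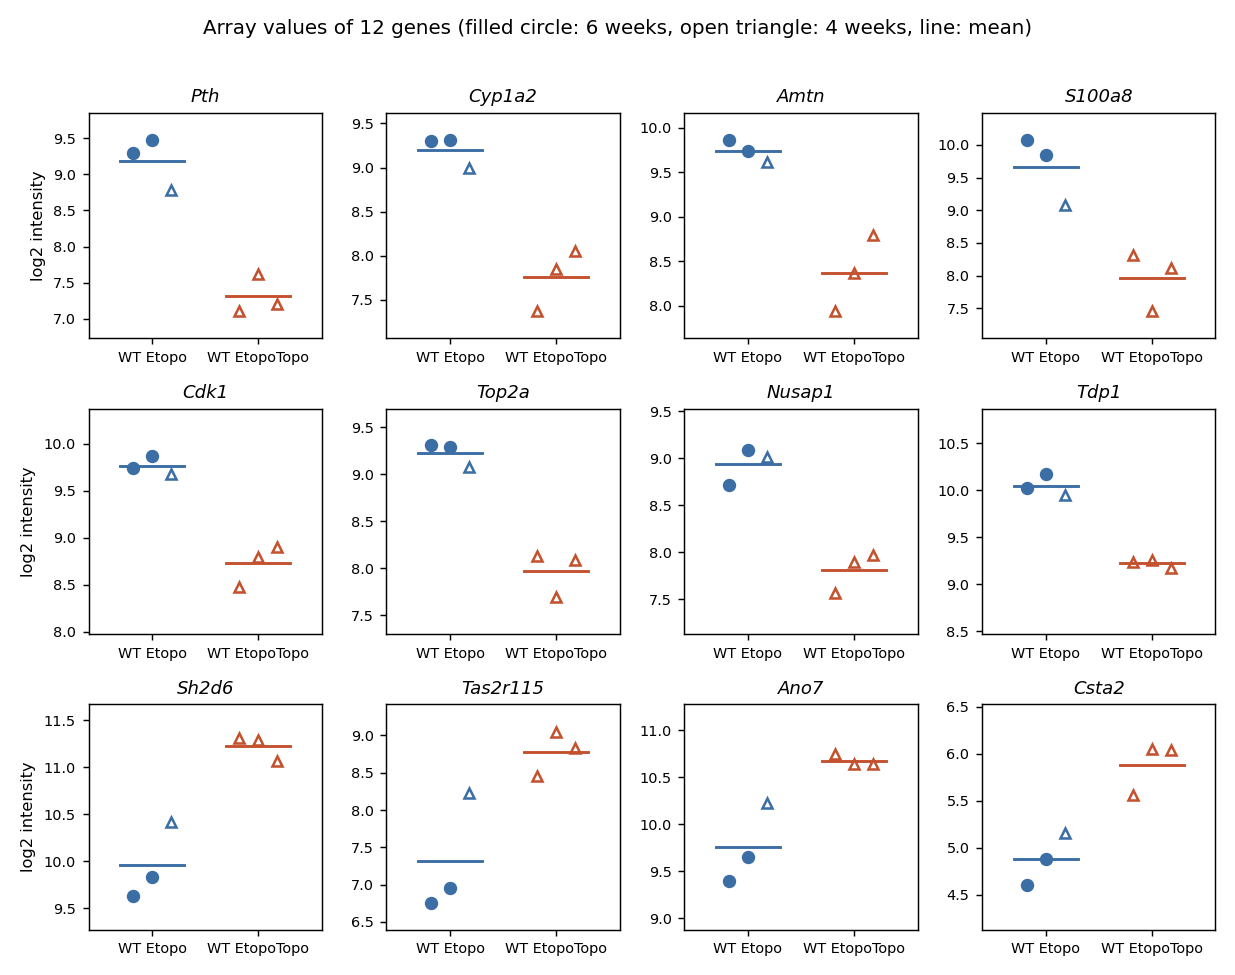
Log2 intensity of 12 genes on the 3 WT Etopo and 3 WT EtopoTopo arrays (points are arrays, filled circles 6 weeks, open triangles 4 weeks, lines group means). The groups do not overlap in any panel, as for 15.4% of all genes lower and 15.8% higher. For Pth, Cyp1a2, Amtn, S100a8, Sh2d6, Tas2r115, Ano7 and Csta2 non-overlap was a rule of their selection. For Tas2r115 the 4-week etoposide array at 8.23 lies near the combination arrays at 8.45 to 9.05.

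The fall of tissue antigens was not matched by a called fall of Aire itself. Aire was at 12.30, 12.22 and 12.04 in WT Etopo and 12.03, 11.27 and 11.75 in WT EtopoTopo, a change of -0.50 ± 0.25 that did not pass (limma adjusted p = 0.243). The 3 combination arrays all lay below the 3 etoposide arrays; the nearest pair differed by little, at 12.04 and 12.03. In KO Etopo the Aire probe read 12.94 and 12.83, so it does not measure the loss of functional Aire. Of 24 genes of mature MECs, 2 fell and 0 rose, with 23 changes below 0 and a median of -0.19, or -0.09 after quantile normalization. These were Ciita, the transactivator of MHC class II genes (-0.75 ± 0.17, limma adjusted p = 0.0246), and Cd83, a surface marker of mature antigen-presenting cells (-0.64 ± 0.15, limma adjusted p = 0.0268). Markers of the sorted cells were not called, with H2-Aa, a class II chain, at 13.49 ± 0.06 (SD) and 13.30 ± 0.11 and the epithelial marker Epcam at 10.76 ± 0.13 and 10.68 ± 0.04.

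Among reported partners of Aire 2 of 32 fell (6.25% against 2.47% of all genes) and 0 rose, with a median of -0.14. Hdac2, a histone deacetylase, was at 10.21, 10.07 and 9.67 against 9.40, 8.96 and 9.25 and fell by 0.78 ± 0.15 (limma adjusted p = 0.00882). Ncl, nucleolin, was at 10.61, 10.23 and 10.16 against 9.63, 9.42 and 9.52 and fell by 0.81 ± 0.17 (limma adjusted p = 0.0131). Both were also lower at 4 weeks in vehicle, by 0.45 and 0.35. Immature MEC genes held 0 called of 12, cortical epithelial genes 1 of 16, which was Cd83 again, tight junction genes 0 of 13, and basement membrane genes 1 of 22, Nid1 (-0.62 ± 0.13, limma adjusted p = 0.0154). Of 22 genes of cornified MECs, which lie past the Aire stage, Klk5 fell (-0.75 ± 0.18) and the list's median was -0.05.

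Genes of other cells that a sort can carry over held at most 1 called member per list. The shares that fell were 5.56% of thymocyte, 4.76% of macrophage and dendritic, 5.56% of stroma and endothelium and 0% of B cell genes. Of all genes 2.47% fell. In the thymocyte list Thy1 fell (1 of 18, -0.85 ± 0.16, limma adjusted p = 0.00837) and list means were 7.14 to 7.27 in WT Etopo and 6.96 to 7.21 in WT EtopoTopo, with Cd3e at 7.90 in both groups. In the macrophage and dendritic list Adgre1 fell (1 of 21, -0.73 ± 0.20, limma adjusted p = 0.0407), with means of 8.35 to 8.47 and 8.19 to 8.30. In the stroma and endothelium list Dcn fell (1 of 18, -0.63 ± 0.13), with means of 8.52 to 8.61 and 8.46 to 8.51. Of 10 B cell genes 0 were called, and means were 8.42 to 8.48 and 8.32 to 8.50. The part of such cells in the results was not tested.

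Tuft cells are epithelial cells that sense chemicals through the taste signalling cascade, and some lie in the thymic medulla. Their genes were higher with both drugs. Of 20 members 5 rose and 0 fell (25% against 1.25% of all genes), 19 changes lay above 0, and the median was 0.46. List means were 9.67, 9.69 and 9.89 in WT Etopo and 10.29, 10.26 and 10.15 in WT EtopoTopo, and the groups did not overlap. The median was 0.57 after quantile normalization and 0.33 both against WT Etopo 3 alone and with WT EtopoTopo 3 alone. In vehicle it was 0.07 between ages.

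Sh2d6, an adaptor protein enriched in tuft cells, was at 9.63, 9.83 and 10.42 in WT Etopo and 11.31, 11.29 and 11.07 in WT EtopoTopo and rose by 1.26 ± 0.21 (limma adjusted p = 0.00465). WT Etopo 3 lay between the other etoposide arrays and the combination, and against it alone the change was 0.80. Chat, which makes acetylcholine, was at 7.61, 7.73 and 8.18 against 8.39, 8.71 and 8.68 and rose by 0.75 ± 0.15 (limma adjusted p = 0.00873). The leukotriene enzyme Alox5 (0.77 ± 0.21), the taste G protein subunit Gng13 (0.55 ± 0.15) and the transcription factor Gfi1b (0.45 ± 0.12) rose too, with limma adjusted p from 0.0414 to 0.0429. The channel Trpm5 (0.71 ± 0.24, limma adjusted p = 0.0912) and the G protein Gnat3 (0.62 ± 0.22, limma adjusted p = 0.117) did not pass, and both were higher at 4 weeks in vehicle, by 0.43 and 0.66. Of the called genes, Sh2d6, Alox5, Chat and Gng13 were higher at 4 weeks in vehicle too, by 0.48, 0.4, 0.26 and 0.17. Gfi1b differed there by -0.05. The lineage factor Pou2f3 had a change of 0.24 ± 0.17 (limma adjusted p = 0.418). When Topo was added to vehicle 10 of the 20 rose and 0 fell (median 0.66), where 0.83% of all genes rose and 1.38% fell. Without Aire 0 of the 20 were called (median 0.23), where 0.451% of all genes rose and 1.14% fell. At such shares a count of 0 in 20 genes does not show that the rise was absent.

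Bitter taste receptors, the Tas2r family that tuft cells can use to sense ligands, had a change above 0 for all 34 members measured. So did 1165 of 1194 olfactory and vomeronasal receptors, which are of low level too, and 10521 of all 19752 genes. The count of signs thus does not set the Tas2r family apart from other dim receptors. Of them 6 rose (17.6% against 1.25% of all genes) and 0 fell, and the median was 0.58, or 0.42 after quantile normalization. Tas2r115 had the largest rise among the named genes, at 6.76, 6.96 and 8.23 in WT Etopo and 8.45, 9.05 and 8.83 in WT EtopoTopo (1.46 ± 0.35, limma adjusted p = 0.0277). The 4-week etoposide array lay nearest the combination arrays. Against it alone the change was 0.54, and in vehicle Tas2r115 was at 7.20 at 4 weeks and at 6.05 and 6.18 at 6 weeks. Tas2r113 was similar, at 7.21, 7.40 and 8.32 against 8.48, 9.01 and 8.59 (1.05 ± 0.28, limma adjusted p = 0.0423), with 0.38 against WT Etopo 3 alone and 0.81 between ages in vehicle. For the list the medians were 0.26 against WT Etopo 3 alone, 0.27 with age as a covariate and 0.31 between ages in vehicle. Ano7, an anoctamin of the prostate, was at 9.40, 9.65 and 10.22 against 10.75, 10.64 and 10.64 and rose by 0.92 ± 0.24 (limma adjusted p = 0.0371), with a difference of 0.45 both against WT Etopo 3 alone and between ages in vehicle.

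**Figure D4:**
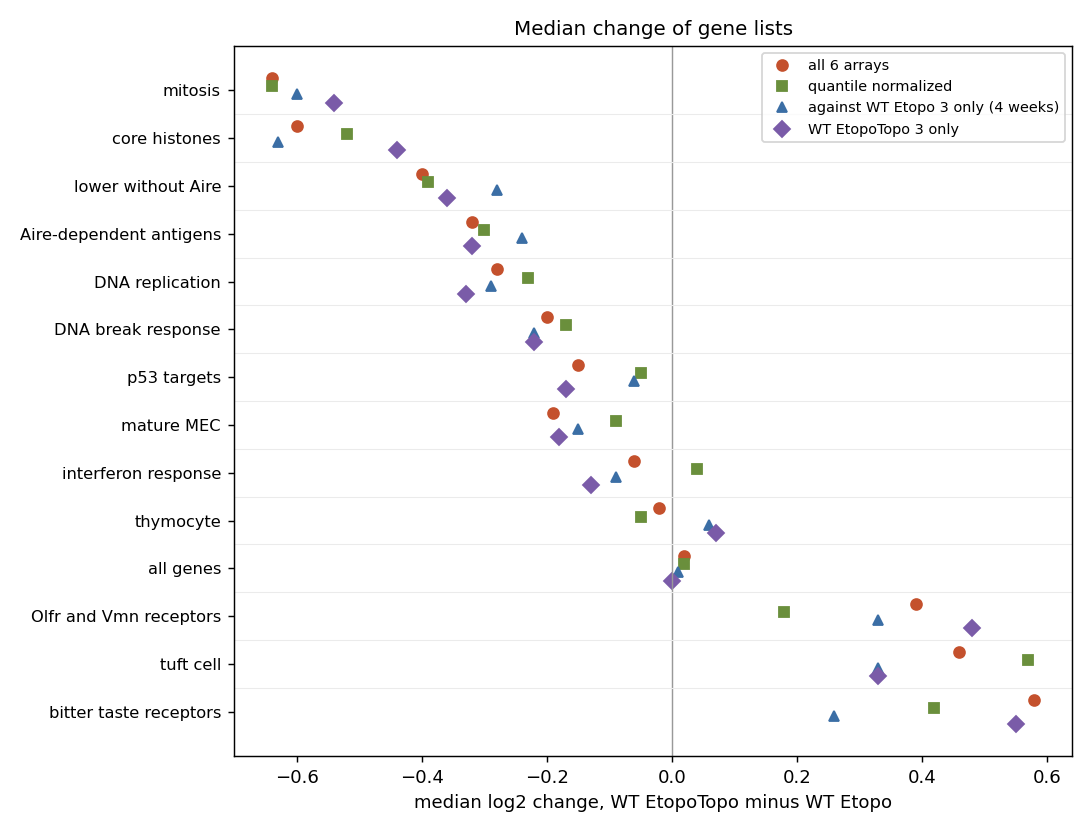
Median log2 change of 13 gene lists and of all genes, WT EtopoTopo minus WT Etopo, with all 6 arrays, after quantile normalization, against WT Etopo 3 only, and with WT EtopoTopo 3 only. The mitosis median lies between -0.64 and -0.54 in all 4, while bitter taste receptors range from 0.58 to 0.26 and olfactory and vomeronasal receptors from 0.48 to 0.18.

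Olfactory and vomeronasal receptors (symbols starting with Olfr or Vmn), which most cells do not transcribe, supplied 112 of the 246 genes that rose (45.5%). They are 9.38% of the 1194 such genes, against 1.25% of all genes, and 9 of the 15 called genes with the largest rise were of this kind. Their median change was 0.39, and 0.18 after quantile normalization. It was 0.42 without Aire, or 0.14 after quantile normalization, and 0.04 on vehicle. Olfr1355, at 4.16, 4.35 and 4.25 against 5.11, 5.21 and 5.19, rose by 0.92 ± 0.13 (limma adjusted p = 0.00216), and by 0.63 after quantile normalization. Vmn2r93, at 5.84, 5.56 and 5.64 against 6.39, 7.0 and 6.87, rose by 1.07 ± 0.22 (limma adjusted p = 0.0125), and by 0.95 after quantile normalization. Receptor means per array were 5.12, 5.27 and 5.28 in WT Etopo and 5.43, 5.71 and 5.70 in WT EtopoTopo, so the arrays of narrowest range were also the highest. KO EtopoTopo 1, with a range of 3.89, had a mean of 5.99. The part of array range in these calls was not tested beyond the quantile values.

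Of the other genes with a large rise, Csta2, a stefin-type cysteine protease inhibitor, was at 4.60, 4.88 and 5.16 in WT Etopo and 5.56, 6.05 and 6.04 in WT EtopoTopo and rose by 1.01 ± 0.16 (limma adjusted p = 0.0036). Its change was 0.77 after quantile normalization and 0.73 against WT Etopo 3 alone, and in vehicle it was higher at 4 weeks by 0.5. With Topo added to vehicle Csta2 fell by 0.66 ± 0.16 (limma adjusted p = 0.0302), at 5.12, 5.09 and 5.61 in WT DMSO and 4.58, 4.67 and 4.60 in WT Topo. It was the 1 gene of 19752 whose change on adding Topo differed between the etoposide and the vehicle background (difference 1.66, 0.00506% of genes), while 1797 genes had an unadjusted p under 0.05 for that difference by limma. With age as a covariate 0 genes were called, and without WT Etopo 3 there were 25. Ifi214, an interferon-inducible gene, was at 5.06, 5.45 and 4.82 against 5.72, 6.06 and 6.51 and rose by 0.99 ± 0.24 (limma adjusted p = 0.0271). Its change was 0.78 after quantile normalization and 1.27 against WT Etopo 3 alone, and in vehicle it was higher at 4 weeks by 0.49.

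Gene length was examined because loss of topoisomerase activity has been described to affect long genes. In 5 bins of equal size by the span of the gene in RefSeq, the median changes were 0.17, 0, -0.03, -0.03 and 0.02 from the shortest (up to 4.37 kb) to the longest (59.7 kb and more). The share of genes that fell was 1.63, 3.28, 3.46, 2.67 and 1.35%, so it was lowest in the longest genes. Among genes above the median level and without the receptors it was 3.36, 4.16, 4.12, 3 and 1.21%. The share that rose was 3.43% in the shortest bin and 0.61 to 0.788% in the others, and receptors, which are short, lie mostly in the former.

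Some genes were called on both backgrounds. Of the 487 genes that fell on top of etoposide, 127 also fell on top of vehicle, which is 26.1% of the 487 and 46.7% of the 272 that fell there, where 1.38% of all genes fell. Of the genes that rose, 12 were shared, of 246 on etoposide and 164 on vehicle, where 0.83% of all genes rose. Across 19752 genes, which are not independent, the changes correlated at a Pearson r of 0.372 with those on vehicle and of 0.577 with those without Aire, as a description. Neither pair of comparisons shares arrays, though the calls of all comparisons use the same spread per gene. The comparison without Aire also shares the direction of age and the narrow range of 1 array. Cyp1a2 and Amtn fell in both backgrounds, by 1.45 ± 0.18 and 1.37 ± 0.23 on etoposide and by 1.09 ± 0.18 and 1.31 ± 0.23 on vehicle (limma adjusted p = 0.00232 and 0.00343 on vehicle). Nid1 was at 8.68, 8.87 and 8.80 in WT Etopo, 7.95, 8.21 and 8.34 in WT EtopoTopo, 9.79, 9.28 and 9.44 in WT DMSO and 8.26, 8.34 and 8.08 in WT Topo. The list of genes lower without Aire also had a median of -0.43 on vehicle, with 153 fallen and 17 risen, but it was chosen on those DMSO arrays.

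Without Aire, Topo added to Etopo gave 89 genes that rose and 226 that fell, counts that rest on 2 arrays a group, since 0 genes were called without either KO Etopo array, 1 without KO EtopoTopo 1 and 6236 without KO EtopoTopo 2. The 640 genes lower without Aire had a median of 0.22 there (0.07 after quantile normalization), with 14 risen and 0 fallen. Of all genes 0.451% rose and 1.14% fell in that comparison. For 17 genes the change differed between genotypes (0.0861% of genes, 1231 at an unadjusted p under 0.05 by limma), and all 17 had a change below 0 in WT and above 0 in KO. Of them 15 belong to the 640 genes lower without Aire. Pth, with the largest difference (2.91, limma adjusted p = 0.00256), was at 4.84 and 5.10 in KO Etopo and 6.65 and 5.37 in KO EtopoTopo. Csn1s2a was at 10.84, 11.15 and 10.35 in WT Etopo, 9.25, 9.97 and 9.71 in WT EtopoTopo, 6.73 and 6.60 in KO Etopo and 8.39 and 7.96 in KO EtopoTopo (difference 2.65, limma adjusted p = 0.00135). In KO these genes started from low levels, and Pth was highest in KO EtopoTopo 1, the array of narrowest range. The caseins Csn1s1 (2.39) and Csn1s2a, Amtn (2.11) and the mucin-like Mucl2 (2.04) differed most after Pth. After quantile normalization 8 of 19752 genes were called for this difference, and 3 when KO EtopoTopo 1 was left out as well. Without normalization the count was 2 without KO EtopoTopo 1 and 1493 without KO EtopoTopo 2.

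**Figure D5:**
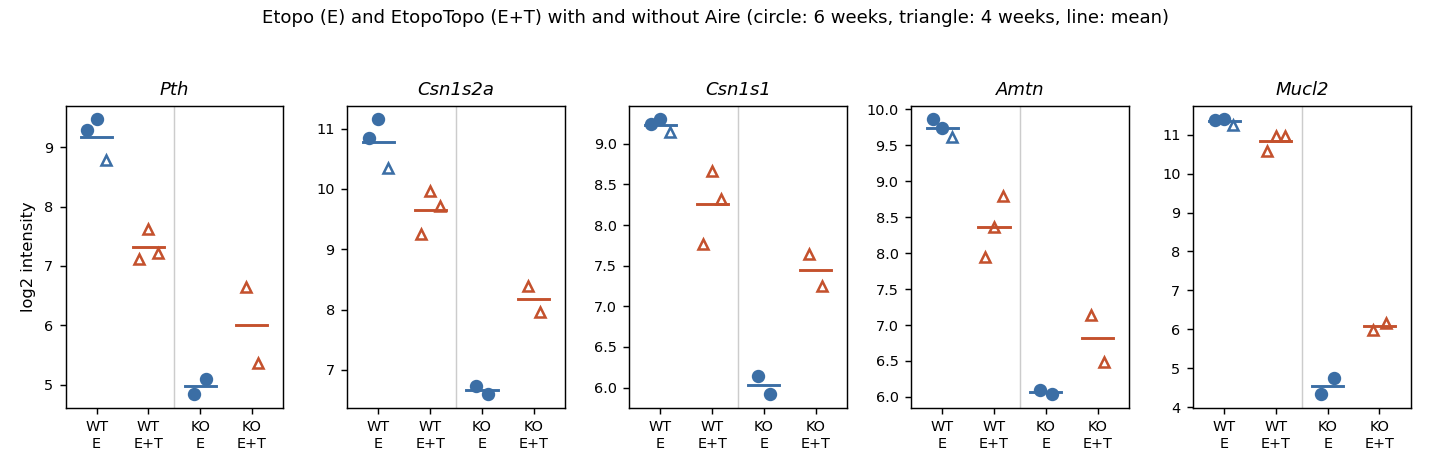
Log2 intensity of the 5 genes with the largest difference between genotypes, in WT and KO arrays with Etopo (E) and EtopoTopo (E+T) (points are arrays, circles 6 weeks, triangles 4 weeks, lines group means). In WT the combination lies below Etopo and in KO above it, for Pth from 4.84 and 5.10 to 6.65 and 5.37.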

How the data were processed

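RNA of sorted MECs was amplified, labelled and hybridised to Affymetrix whole-transcript arrays, per the labels' protocols. The deposited intensity values are linear. The submitters' processing notes list RMA and Affymetrix Power Tools and give no version of either. Here log2 was taken without a pseudocount or further normalization. Each of 21425 probes (of 24922) with 1 gene symbol was used, taking for each gene the probe with the highest mean, which left 19752 genes. Groups came from the titles.

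Tests used limma 3.58.1 in R 4.3.3 (package data.table, version 1.17.8), with 1 mean for each of 8 groups over 22 arrays (14 residual and 7.22 prior degrees of freedom) and Benjamini-Hochberg adjustment. The method was tested on simulated data. The number of arrays limits the precision. Genes named are up to 15 called genes each way with the largest changes and no overlap between groups, up to 5 each way for side comparisons, up to 8 per list by lowest p, the cell type markers, and Aire, Top1, Top1mt, Top2a, Top2b, Tdp1 and Tdp2. Predicted and small RNA genes were not named. Of 555 list members 506 were measured. The lists are described by counts and medians. Counts of the main comparison are to be read beside the 1.25% of all genes that rose and the 2.47% that fell. The comparison and the 25 lists were chosen with earlier results of these data known. The ages within vehicle, the promoter search and 5 alternatives were added after seeing the data.

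Replicate numbers come from the titles and did not pair the arrays, since deviations of same-numbered WT Etopo and WT EtopoTopo arrays correlated at 0.30, 0.19 and -0.16.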

Additional observations from a re-analysis of the deposited data

Results flagged for a closer look

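The change on adding Topo to Etopo differed between genotypes for 17 genes, tested as an interaction in limma, with Pth (2.91), Csn1s2a (2.65), Csn1s1 (2.39), Amtn (2.11) and Mucl2 (2.04, KO change minus WT change on the log2 scale) named by size. The change on adding Topo differed between the etoposide and the vehicle background for 1 gene, Csta2 (1.66, change on etoposide minus change on vehicle). Age differs between the groups of both contrasts, and its part was not tested beyond the covariate fit of the second.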

How the results depend on the processing

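All 30 genes named by size kept their sign under each alternative run, 8 of them also tested above the median level, which their selection on the same arrays largely fixes. Of the 733 genes called by limma, counts were 340 above the median level, 1785 with the 6 arrays alone, 4015 with array weights, whose estimate did not converge, 0 with age as a covariate, 0 within 4 weeks, 13 with quantile normalization and age, 1 without WT EtopoTopo 1 and 2, 36 without WT EtopoTopo 2 and 3, and 51 (without WT Etopo 1) to 981 (without WT Etopo 3) leaving out 1 array. The count was 97 without WT Etopo 2, 655 without WT EtopoTopo 1, 138 without WT EtopoTopo 2 and 201 without WT EtopoTopo 3. The replicate numbers do not pair the arrays, and a replicate block gave 648 genes (319 for Topo on vehicle) and called 29 of the 30 (largest adjusted p 0.0513). Without Aire, 315 became 605 above the median level, 955 with a replicate block, and 0 (without either KO Etopo array) to 6236 (without KO EtopoTopo 2) leaving out 1 array, with 1 without KO EtopoTopo 1. For Topo on vehicle, 436 became 241 above the median level and 103 (without WT Topo 1) to 348 (without WT DMSO 2) leaving out 1 array, with 219 and 213 without WT DMSO 1 and 3 and 243 and 208 without WT Topo 2 and 3. The genotype difference (17) gave 8 after quantile normalization, 4 above the median level, 3 with quantile normalization without KO EtopoTopo 1, and 2 (without KO EtopoTopo 1) to 1493 (without KO EtopoTopo 2). The background difference (1) gave 2 after quantile normalization, 0 above the median level, 0 with age as a covariate and 1 to 25 (without WT Etopo 3) leaving out 1 array. Of 28 list medians, 10 moved by more than the spread between arrays under quantile normalization, 10 within 4 weeks, 10 with age and 4 without WT EtopoTopo 1 and 2. Among them were those of tuft cells (0.57 quantile, 0.33 within 4 weeks, 0.33 without WT EtopoTopo 1 and 2), bitter taste receptors (0.26 within 4 weeks, 0.27 with age), olfactory and vomeronasal receptors (0.18 quantile), genes lower without Aire (-0.28 within 4 weeks), p53 targets (-0.05 quantile), cortical epithelium (-0.13 quantile), Aire partners (-0.05 quantile) and immediate early genes (0.17 within 4 weeks). Fewer arrays or genes enter several of these fits, and the cause of the other differences was not tested. Lone arrays were assumed to vary like the other groups.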
